A study of Rattus norvegicus with 4 samples.

Results

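C1q-expressing cells are the barcodes of these rat skin wounds that carried at least 3 UMIs (unique molecular identifiers, each one captured RNA molecule) of C1qa, C1qb and C1qc together. They were chosen from barcodes with at least 1000 UMIs, at least 250 genes and at most 20% of UMIs in mitochondrial genes. Barcodes with 0.5% or more of UMIs in Krt5 and Krt14, 1% or more in collagen genes and Dcn, 0.5% or more in the neutrophil genes G0s2, Il1r2, S100a8 and S100a9, or any UMI of Cd3e, Cd3d or Cd3g were left out. The rule found 114 cells among the 32801 barcodes that passed the depth, gene and mitochondrial limits. The C1q counts therefore chose the cells and are given below as a description, without a test.

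The samples were skin of a rat wound healing model collected on day 4. The 2 injected libraries came from wounds given purified migrasomes (vesicles left behind on the retraction fibres of moving cells), and the 2 uninjected libraries came from wounds that had received nothing. The control was not a mock injection, so the needle, the vehicle and the migrasomes cannot be told apart. Strain, sex and age of the rats, the cells that gave the migrasomes, and whether replicates were separate animals are not stated in the labels. The p-values of the gene tests below therefore describe scatter between libraries, and that scatter may be technical. In the main fit the scatter came from the 2 injected libraries only. Its p-values therefore do not include scatter between the uninjected libraries.

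C1q is the recognition protein of the classical complement pathway. It is assembled from A, B and C chains, binds antibody complexes and dying cells, and starts the cascade through the proteases C1r and C1s. Unlike most complement proteins, which come largely from the liver, C1q is made mainly by tissue macrophages and some dendritic cells. In skin, macrophages with C1q and the mannose receptor Mrc1 (CD206) take up debris and dead cells around vessels and in healing wounds.

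The 3 chain genes are known to lie side by side, and their RNA varied together from cell to cell. The 250 bases before the annotated start are shown for C1qa and C1qb, because the chains define these cells and varied together in them. The sequences are from RefSeq (assembly GRCr8), both on the minus strand, at chr5:154419934-154420183 for C1qa and chr5:154407828-154408077 for C1qb. Capitals mark TGCTGA, the core site of the MAF family of macrophage transcription factors, or its reverse complement TCAGCA.
C1qa: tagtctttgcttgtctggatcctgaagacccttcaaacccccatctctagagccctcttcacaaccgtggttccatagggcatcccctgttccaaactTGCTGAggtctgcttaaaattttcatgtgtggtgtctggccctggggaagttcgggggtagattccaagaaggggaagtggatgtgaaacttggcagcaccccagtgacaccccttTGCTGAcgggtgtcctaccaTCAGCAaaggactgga
C1qb: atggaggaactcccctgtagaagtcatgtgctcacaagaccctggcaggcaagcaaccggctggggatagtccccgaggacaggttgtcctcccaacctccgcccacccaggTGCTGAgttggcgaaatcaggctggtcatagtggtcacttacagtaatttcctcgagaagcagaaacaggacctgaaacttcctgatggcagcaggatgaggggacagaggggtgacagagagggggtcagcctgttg

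The C1qa window held 3 MAF core sites, starting 152, 36 and 16 bases before the start, and the C1qb window held 1, at 138 bases. Among 33469 windows of the same length, 15.1% held at least 1 such site on either strand and 0.149% held 3 or more. GAGGAA, a core bound by the myeloid factor PU.1, was searched on both strands too. It occurred at 247 and 90 bases before the C1qb start and not in the C1qa window, against 23.3% of all windows, and no match overlapped a MAF core site. A match of letters is a description of the window and shows no binding.

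The libraries contributed unequal numbers of these cells. Uninjected 1 held 9 of its 7818 kept barcodes, uninjected 2 held 24 of 8990, injected 1 held 49 of 9850 and injected 2 held 32 of 6143. Their UMIs summed to 39812, 230368, 393107 and 288881, with median depths of 4484, 8122.5, 7241 and 8618.5 UMIs per cell. The 9 cells of uninjected 1 stood apart. Ribosomal protein genes took 10.6% of their UMIs against 4.22% to 4.86% in the other libraries, and the deepest cell alone gave 22.8% of their UMIs, against 5.04% to 13.8% elsewhere. Scrublet, a doublet caller, marked 9 of the 114 cells, 7 of them in injected 1. No cell barcode of these cells was shared as a C1q-expressing cell between libraries, although pairs of libraries shared 13 to 29 kept barcodes and 1 of these cells in injected 2 had a barcode also kept in injected 1.

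The cells held 3 to 311 C1q UMIs, with medians of 5, 21.5, 19 and 27 in uninjected 1, uninjected 2, injected 1 and injected 2 (the plot of C1q UMIs per cell). At the threshold, 8 cells held exactly 3 UMIs and 9 held 4, while 20 barcodes that passed the other limits held 2 and 132 held 1. Of the 114 cells, 73 held 10 or more and 24 held 5 to 9. In barcodes rich in keratins, neutrophil genes or collagens, which should lack C1q, 0.0896% to 2.32% had a C1q UMI and 0% to 0.161% had 3, at median depths of 1257.5 to 26472.5 UMIs. The exclusion limits removed 7 of 121 barcodes with 3 C1q UMIs.

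**Figure D1:**
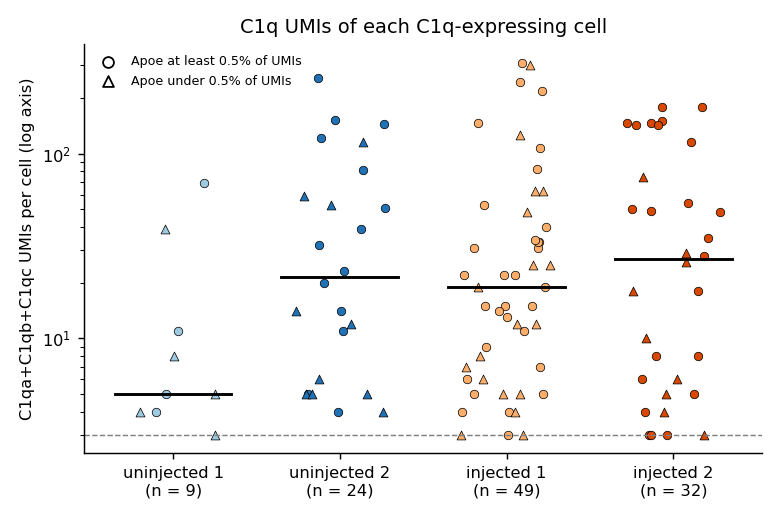
C1qa, C1qb and C1qc UMIs of each of the 114 cells (log axis) by library; circles are cells with at least 0.5% of UMIs from Apoe, triangles the others, the bar is the median and the dashed line the threshold of 3. Counts run from 3 to 311, and the median of uninjected 1, at 5, lies below the 19 to 27 of the other libraries.

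C1qa contributed 2047 UMIs, C1qb 1944 and C1qc 1401, or 38.0%, 36.1% and 26.0% of the total, and 81 of 114 cells had all 3. Across the 114 cells the log levels of the chains had Pearson correlations of 0.694 (C1qa and C1qb), 0.711 (C1qa and C1qc) and 0.751 (C1qb and C1qc). These correlations are descriptions, since the points share libraries, depth and the rule on their sum. C1qa was at 1407 and 2170 CPM (UMI counts scaled to the same total in each library) in uninjected 1 and 2 and at 2114 and 2285 in injected 1 and 2. C1qb was at 1331 and 1632 against 2144 and 2326, and C1qc at 980 and 1550 against 1626 and 1267.

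Markers of macrophages in general were present throughout. All 10 of the general markers were detected, and each of the 114 cells had at least 2 of them. Their sum was 8992 and 11729 CPM in uninjected 1 and 2 and 11824 and 13064 in injected 1 and 2. Lysozyme (Lyz2) was at 2587, 5561, 5619 and 6151 and the lysosomal protein Cd68 at 251, 916, 674 and 969, in the same order. The receptor for macrophage colony-stimulating factor, Csf1r, was at 377 and 252 against 242 and 232, a narrow range. These levels are sums over cells, and on their own they do not tell fewer cells with a gene from less RNA per cell.

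Mrc1, the fourth marker of these cells, was less uniform than C1q. It had a UMI in 73 of 114 cells, which is 64.0% (Wilson 95% interval 54.9% to 72.3%; median depth 7646.5 UMIs). In keratin-rich barcodes the share was 1.77% at a median depth of 16667 UMIs. Its level was 1155 and 239 CPM in uninjected 1 and 2 and 328 and 900 in injected 1 and 2. High and low values therefore occurred in both groups. The haemoglobin scavenger receptor Cd163, which was no part of the rule, followed a similar order, at 1281, 113, 226 and 696, and the log levels of Mrc1 and Cd163 had a Pearson correlation of 0.609 across cells, given as a description.

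Markers of other cell types were low but not absent. Keratinocyte markers, 10 of 12 detected with Krt16 at 0 and Krt6a not matched, summed to 1331 and 4106 CPM in uninjected 1 and 2 and to 2414 and 2122 in injected 1 and 2, and 6 cells had 0.5% or more of UMIs in them. Dendritic cell markers, 8 of 10 detected with Xcr1 and Clec9a at 0, summed to 1130 and 846 in the uninjected libraries and to 259 and 62.3 in the injected ones, without overlap. A single gene, Cd207, whose levels are given below, made up most of that sum in uninjected 1, uninjected 2 and injected 1. It was found in 10 cells, and at least 50% of its UMIs came from 2 of them. The sums therefore do not describe the dendritic cell markers as a group. Muscle precursor genes summed to 630 in injected 2 and to at most 12.7 elsewhere, and 1 cell held 2 or more of them. Red blood cell genes summed to 1605 in injected 1 and to at most 50.2 elsewhere. Endothelial markers stayed at or below 75.4 and mast cell markers at or below 50.2. The fibroblast markers, in part limited by the rule, summed to 151 to 256. Fits without the cells of 0.5% or more keratinocyte genes and without the marked doublets were run as alternatives. Fewer genes passed in each than in the main fit below. Among the named genes tested in them, the log2 change turned direction in 0 of 21 and in 1 of 22. The part of the other transcripts in the results below was not tested beyond the values given there.

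The 114 cells fell into different ranges of the lipid carrier Apoe and of the MHC class II genes, which present antigen to T cells. Apoe reached at least 0.5% of UMIs in 72 cells and stayed under it in 42, a limit chosen after the values were seen, with 11 cells between 0.25% and 1%. The MHC class II genes Cd74, RT1-Ba, RT1-Bb, RT1-Da and RT1-Db1 took a median of 0.0469% of UMIs in the Apoe-high cells and 3.19% in the Apoe-low cells. The ranges overlapped, from 0% to 5.67% and from 0% to 10.7%. Across the 114 cells the log levels of Apoe and Cd74 had a Pearson correlation of -0.594 and a Spearman correlation of -0.578, given as a description. Median depth was alike, at 7757 and 7378.5 UMIs, while C1q UMIs had medians of 25.5 and 9.

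**Figure D2:**
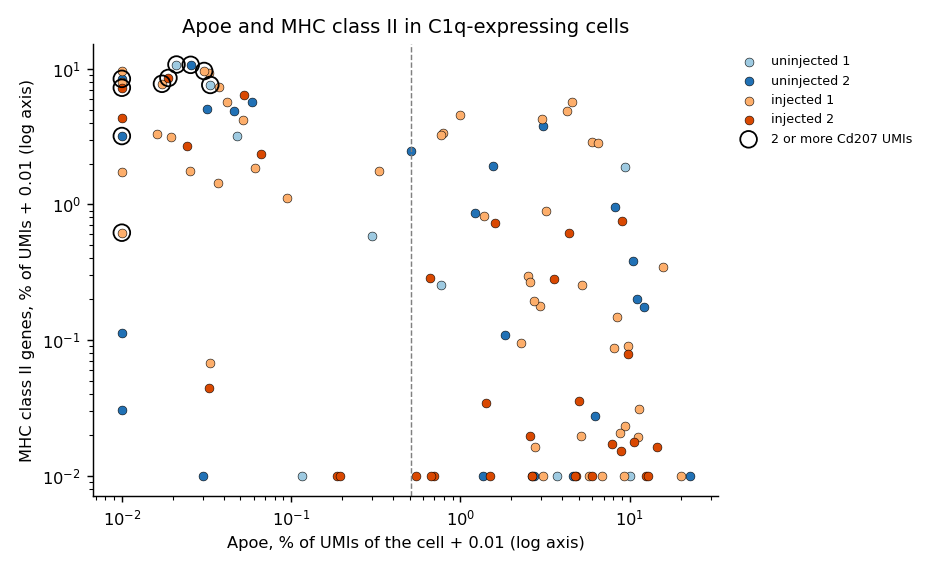
Each of the 114 cells by its share of UMIs from Apoe (horizontal) and from 5 MHC class II genes (vertical), both in percent plus 0.01 on log axes; colours are libraries, rings mark 10 cells with at least 2 Cd207 UMIs and the dashed line is 0.5%. All ringed cells lie left of the line, and cells of all 4 libraries lie on both sides.

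Many scavenging and lysosomal genes, though not all, were higher in the Apoe-high cells. The endosomal protease Ctsl was at 8167, 6475, 9351 and 16699 CPM in the Apoe-high cells of uninjected 1, uninjected 2, injected 1 and injected 2, against 953, 2324, 1460 and 4401 in the Apoe-low cells of the same libraries. Legumain (Lgmn), another endosomal protease, was at 2869, 1479, 1520 and 2752 against 38.1, 438, 417 and 545. Mrc1 was at 3164, 347, 541 and 1193 against 114, 67.4, 12.6 and 66.5. In each of these genes the Apoe-high cells were above the Apoe-low cells in all 4 libraries. The same held for Ctsb, Ctsd, Grn, Pf4, Gpnmb, Cd163, Fcgrt and the chemokine Ccl7, and for each C1q chain. Other lysosome genes were mixed, with Apoe-high cells above in 3 libraries for Lamp1, Psap and Cd68 and in 2 for Cd63 and Ctsz. For Axl, Mfge8, Scarb1 and Elmo1, of the efferocytosis and recognition list, they were above in 0 libraries.

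Apoe-low cells carried the antigen-presenting genes. Cd74, the invariant chain of MHC class II, was at 18421, 15327, 10280 and 10650 CPM in the Apoe-low cells of the 4 libraries in the same order, against 1398, 2307, 1588 and 477 in the Apoe-high cells. The costimulatory receptor Cd86 was at 534, 78.6, 272 and 39.9 against 0, 35.4, 25.5 and 14. Langerin (Cd207), a lectin of Langerhans cells and of some dermal dendritic cells, was at 1602, 2055, 525 and 66.5 against 0 in each library. It had 2 or more UMIs in 10 cells, which were 2, 3, 3 and 2 of the cells of the 4 libraries, and all 10 were Apoe-low. The dendritic cell genes Flt3 and Zbtb46 were near 0 in both ranges, with a UMI in at most 5 of the 42 Apoe-low cells. The label of macrophages thus rests on general markers, of which all cells had at least 2. How many other barcodes had 2 of them was not counted, so whether this sets the cells apart was not tested. Mrc1 had a UMI in 64 of 72 Apoe-high cells but in 9 of 42 Apoe-low cells, and Cd163 in 31 and 3. Fewer than 5 UMIs of general leukocyte genes were found in 1, 0, 3 and 2 cells of the 4 libraries. Scavenging genes such as Mrc1 and Cd163 were higher in the Apoe-high cells, and langerin was found in a few Apoe-low ones. Apoe-low cells made up 5 of 9, 10 of 24, 18 of 49 and 9 of 32 cells, or 55.6%, 41.7%, 36.7% and 28.1%, with wide Wilson intervals that overlapped (for example 26.7% to 81.1% in uninjected 1 and 15.6% to 45.4% in injected 2).

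To show where C1q-expressing cells differ from other macrophages, their levels were set beside C1q-low cells that passed the same exclusion limits. A wider C1q-low class required 3 UMIs of general macrophage genes, among them Cd68, Csf1r, Adgre1, Ms4a7 and Fcgr1a, and held 469, 838, 1061 and 781 barcodes. Only 13.4% to 54.7% of these had 5 UMIs of general leukocyte genes. Both C1q-low classes also had no UMI of the dendritic cell genes Flt3, Ccr7 and Cd207, a limit that the C1q-expressing cells did not have. A narrower class, defined after this was seen, counted only the 5 genes named and asked for 5 leukocyte UMIs. It held 43, 324, 452 and 323 barcodes. Of 1803 genes with at least 50 CPM in the C1q-expressing cells of each library, 332 were above the narrower class in all 4 libraries. The 2 classes were separated by measured values, so these levels are a description.

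Cd163, which clears haemoglobin bound to haptoglobin, led the genes other than C1q. It was at 1281, 113, 226 and 696 CPM in the C1q-expressing cells of uninjected 1, uninjected 2, injected 1 and injected 2, and its lowest ratio to the narrower class was 24.1. The neonatal Fc receptor Fcgrt, which recycles antibody and albumin, was next at 402, 260, 191 and 547, with a lowest ratio of 8.64. Rarres1 had a lowest ratio of 4.69, complement factor D (Cfd), a protease of the alternative pathway, one of 3.33, and the Fc receptor Fcgr3a one of 3.15. Where the narrower class held fewer than 3 UMIs the ratio was taken against 3. Tmem176a and Tmem176b, neighbouring membrane channels of myeloid cells, had lowest ratios of 2.82 and 2.62. Mrc1 had one of 2.61, the interleukin 4 receptor Il4r one of 2.32, the growth factor Nrg1 one of 2.28 and the cholesterol exporter Abcg1 one of 2.24. The sphingosine kinase Sphk1 (2.71), Pld4 (2.66) and Tifa (2.25) completed the leading genes with Asgr2. For Asgr2 the narrower class held 1 UMI in uninjected 1, and the levels of the C1q-expressing cells were 50.2, 86.8, 58.5 and 65.8.

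**Figure D3:**
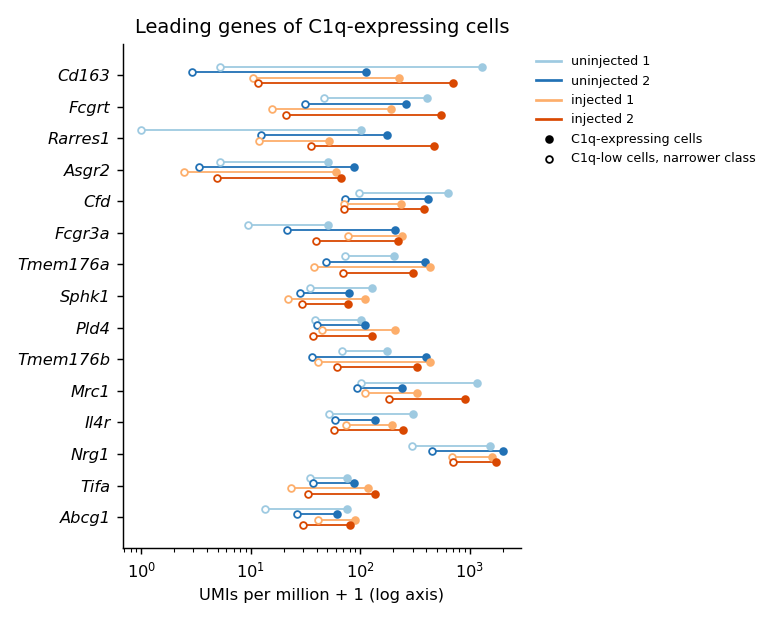
Level of the 15 leading genes other than C1q in C1q-expressing cells (filled) and in the narrower C1q-low class (open) of each library, in CPM plus 1 on a log axis. Each filled point lies right of its open point, and Cd163 has the largest lowest-library ratio, 24.1.

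C1q-expressing cells were a larger share of the kept barcodes in the injected libraries. The share was 0.115% (Wilson 95% interval 0.0606% to 0.219%) and 0.267% (0.179% to 0.397%) in uninjected 1 and 2, and 0.497% (0.377% to 0.657%) and 0.521% (0.369% to 0.734%) in injected 1 and 2. The means were 0.191% ± 0.107 (SD, n = 2) and 0.509% ± 0.0166 (SD, n = 2), without overlap between the groups. The exact two-sided permutation test over libraries gave p = 0.33, which is the smallest value that 2 against 2 libraries allow. The share of barcodes that should lack C1q but had a C1q UMI was also higher in the injected libraries, at 0.793% to 2.32% against 0.0896% to 0.444%, and its part in the result was not tested. With 10 or more C1q UMIs required the means were 0.114% and 0.33%. Shares depend on how the other cells were captured, and intervals cover counting error only.

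Among macrophages the direction depended on the class they were set against. Of C1q-expressing plus wider C1q-low cells they were 1.88% and 2.78% in uninjected 1 and 2 and 4.41% and 3.94% in injected 1 and 2 (exact permutation p = 0.33). Of C1q-expressing plus narrower C1q-low cells they were 17.3% and 6.90% against 9.78% and 9.01%, a difference in means of -2.70 percentage points (exact permutation p = 1). Without uninjected 1, which rests on 9 of 52 cells, that difference was 2.50 points.

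**Figure D4:**
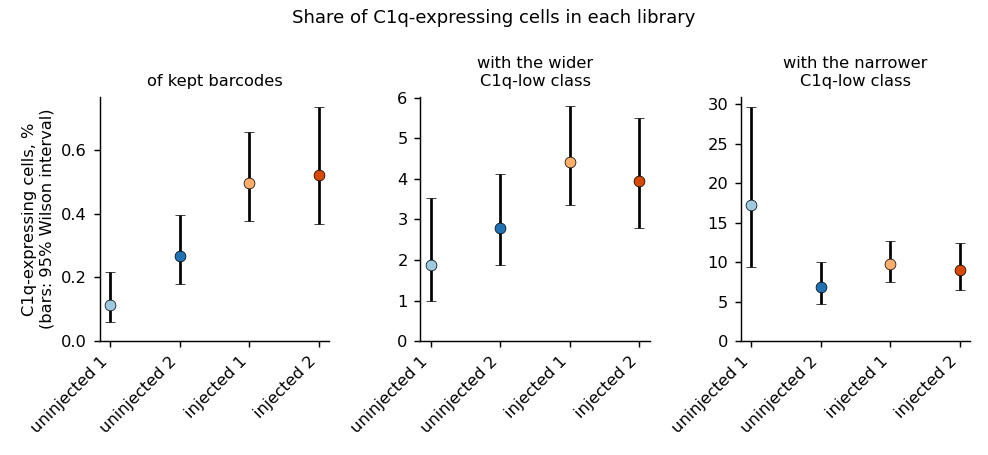
Percent of C1q-expressing cells in each library, of kept barcodes (left), of these cells plus the wider C1q-low class (middle) and of these cells plus the narrower class (right); bars are 95% Wilson intervals. The injected libraries are higher in the left and middle panels, and uninjected 1 is highest in the right panel.

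The effect of injection on the RNA of C1q-expressing cells was tested on UMIs summed per library. Uninjected 1 had fewer than 10 cells and was left out of the main fit, so the uninjected group was 1 library and the spread came from the 2 injected libraries. In that fit, 70 of 4641 genes (1.51%) passed an adjusted p of 0.05 by edgeR's quasi-likelihood test, 26 higher (0.56%) and 44 lower (0.948%) in injected wounds. With all 4 libraries, 0 of 3598 genes (0%) passed the same test, 160 had an unadjusted p under 0.05, and DESeq2 called 3 genes in the 3-library fit. Leaving out uninjected 2 in place of uninjected 1 gave 254 calls, leaving out injected 1 gave 18 and leaving out injected 2 gave 3. No call below passed in the fit of all 4 libraries, whose adjusted p is given beside the call where the gene was tested there. Calls in each list below are to be read beside the shares over all genes given here, and several lists rest on a single gene. Over the 3598 genes, both injected libraries lay above both uninjected ones in 16.3% and below them in 17.6%. Groups without overlap are therefore common among all genes.

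Many of the 70 genes rested on a few cells. For 26 of them 50% or more of the UMIs came from 1 cell, for 43 from at most 3 cells, and for 7 from 10 or more. The 7 genes carried by many cells were Ccl2, Ccl3, Cxcl3, Ctsl, RT1-A2, Lilrb2 and Mbd2. Haemoglobin Hba-a1 in injected 1 and the muscle factor Myog in injected 2 had 98.9% and 100% of their UMIs in 1 cell, and the lipase Lpl (0, 573, 10.2 and 38.1 CPM) had 89.1%. Il1r2, also among the 70, belongs to the rule and is not described.

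Chemokines that attract monocytes and neutrophils gave 4 calls as higher. Ccl2, the main attractant of monocytes, was at 452 and 1298 CPM in uninjected 1 and 2 and at 3633 and 6954 in injected 1 and 2. Its log2 change was 2.08 (SE 0.34, edgeR adjusted p = 2.22e-07) with 3 libraries and 2.60 (edgeR adjusted p = 0.493) with all 4. Both injected libraries were above both uninjected ones. Keratin-rich barcodes also held Ccl2, at 2540 CPM, and up to 46.3% of the Ccl2 in the cells of uninjected 1 matched the estimated free RNA of that library, against 0.784% to 4.09% in the others.

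Ccl7, a second monocyte attractant encoded near Ccl2, was at 100 and 421 CPM in uninjected 1 and 2 and at 949 and 2929 in injected 1 and 2. The 3-library log2 change was 2.25 (edgeR adjusted p = 8.88e-06), and with all 4 libraries it was 2.80 (edgeR adjusted p = 0.675). Ccl3, which attracts monocytes and other leukocytes, was at 427 and 1255 against 3526 and 2496, with a log2 change of 1.31 (edgeR adjusted p = 0.0165; 0.952 with all 4). Cxcl3, a neutrophil attractant, was at 7862 and 5834 against 15578 and 10731, with a log2 change of 1.22 (edgeR adjusted p = 0.000704; 1 with all 4). In these 3 genes too the groups did not overlap. Within the Apoe-high cells alone, Ccl2 was at 956 and 1323 against 5499 and 7792 and Ccl7 at 294 and 531 against 1400 and 3889, and Ccl3 at 1177 and 1253 against 4312 and 2172, again without overlap. Cxcl3 overlapped there, at 19276 and 5916 against 16804 and 8331, with a log2 change of 0.42. The Apoe-high cells of uninjected 1 numbered 4. None of the 4 genes passed there (edgeR adjusted p = 0.669 for Ccl2, 0.817 for Ccl7 and 0.999 for Ccl3 and Cxcl3, all 4 libraries).

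The chemokine list had 26 genes, of which 17 were tested. Higher estimates were found for 12 of them, against 2460 of 4641 over all genes tested. The 4 genes above passed as higher and Ccl20 as lower, and the median log2 change was 0.58 against 0.05 over all genes tested. With all 4 libraries none of 15 passed, the median was 0.73 against 0.03, and in 7 genes both injected libraries lay above both uninjected ones, a pattern found in 16.3% of all genes. Ccl20, an attractant of dendritic cells and T cells, was at 0, 208, 5.09 and 3.46 CPM, and 88.2% of its UMIs came from 1 cell of uninjected 2. The abundant neutrophil attractants Cxcl1 (8741, 17025, 23899 and 17575) and Cxcl2 (10098, 15922, 20145 and 19686) did not pass.

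**Figure D5:**
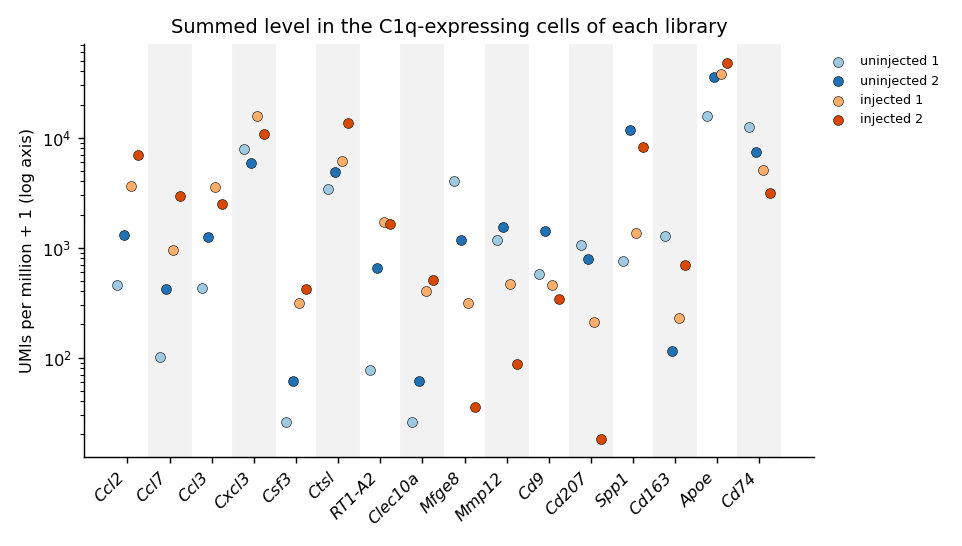
Summed level of 16 genes in the C1q-expressing cells of each library, in CPM plus 1 on a log axis; 1 point is 1 library. Both injected libraries lie above both uninjected ones for Ccl2 to Clec10a and Apoe and below them for Mfge8 to Cd207 and Cd74, while the groups overlap for Spp1 and Cd163.

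Cytokine genes included 2 that passed as higher and 1 as lower among 17 tested of 26, with a median log2 change of 0.29. Csf3, the growth factor of neutrophils, was at 25.1 and 60.8 CPM in uninjected 1 and 2 and at 310 and 419 in injected 1 and 2 (log2 change 2.62, edgeR adjusted p = 0.00159; 0.373 with all 4). At least 50% of its UMIs came from 2 cells. Il23a, a subunit of interleukin 23, was at 0 and 39.1 against 247 and 104. Its log2 change was 2.21 with 3 libraries, and its edgeR adjusted p was 0.905 with all 4. At least 50% of its UMIs came from 3 cells. Inhba, the activin A subunit, was at 75.4 and 221 against 17.8 and 6.92 (-4.01, edgeR adjusted p = 3.96e-09; 0.24 with all 4), and at least 50% of its UMIs came from 2 cells. Il1b, the inflammatory cytokine, was at 1582, 3000, 4762 and 2368 and the prostaglandin synthase Ptgs2 at 402, 1398, 2211 and 2029, and neither passed. With all 4 libraries the list's median was 0.79 against 0.03 over all genes, and 6 of 15 genes were above without overlap, against 16.3% of all genes.

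Lysosome genes gave 1 call among 24 tested. Ctsl was at 3416 and 4870 CPM in uninjected 1 and 2 and at 6176 and 13497 in injected 1 and 2, without overlap (log2 change 1.06, SE 0.28, edgeR adjusted p = 0.0113; 0.983 with all 4). Higher estimates were found for 17 of the 24 genes, against 2460 of 4641 over all genes tested. The median log2 change was 0.34 against 0.05 over all genes (0.47 against 0.03 with all 4 libraries). The tetraspanin Cd63 (4873, 3872, 3472 and 3912), the protease Ctsb (2160, 2053, 1692 and 2665) and the saposin precursor Psap (2185, 1780, 1819 and 2260) overlapped between groups. Ctsl was itself highest in the Apoe-high cells, whose share was larger in the injected libraries. Within those cells its log2 change was 1.11 (edgeR adjusted p = 0.999, all 4 libraries). The part of that share in the Ctsl result was not tested.

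Of the resident and scavenging macrophage genes, 14 of 26 were tested and 2 passed. Clec10a, a lectin for galactose-type sugars (CD301), was at 25.1 and 60.8 CPM in uninjected 1 and 2 and at 402 and 509 in injected 1 and 2 (log2 change 2.94, edgeR adjusted p = 0.000133; 0.24 with all 4). At least 50% of its UMIs came from 5 cells. Cd163, with 1281 and 113 against 226 and 696, had a log2 change of 2.07 (edgeR adjusted p = 0.0132) with 3 libraries and of -0.44 with all 4. Its direction turned on uninjected 1, where 3 of 9 cells had a UMI of it (34 of all 114 cells, 29.8%, against 0.11% of keratin-rich barcodes): without uninjected 2 it was -1.35 (edgeR adjusted p = 0.0415). Mrc1, the chemokine Pf4 (2210, 603, 944 and 1180) and the haem oxygenase Hmox1 (1708, 1081, 941 and 1350) did not pass.

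Among the efferocytosis and recognition receptors, 1 of 16 tested genes passed. Mfge8, a bridging protein between dying cells and integrins, was at 4019 and 1172 CPM in uninjected 1 and 2 and at 313 and 34.6 in injected 1 and 2 (log2 change -2.68, edgeR adjusted p = 1.65e-07; 0.568 with all 4). It came from the Apoe-low cells (6102, 2975, 759 and 93.1 there, at most 35.4 in the Apoe-high cells), and at least 50% of its UMIs came from 2 cells. Cd207, in the same range of cells, was at 1055 and 794 against 211 and 17.3. Its log2 change was -2.72 with 3 libraries, and its edgeR adjusted p was 0.905 with all 4. At least 50% of its UMIs came from 2 cells. Cells with 2 or more Cd207 UMIs were 2 of 9 and 3 of 24 in uninjected 1 and 2. In injected 1 and 2 they were 3 of 49 and 2 of 32. The receptor Mertk was at 50.2 and 91.2 against 10.2 and 38.1 and did not pass.

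Of the growth factor and matrix genes, 23 of 28 were tested and 15 had lower estimates, against 2181 of 4641 over all genes tested. The list's median log2 change was -0.46, and with all 4 libraries it was -0.10 against 0.03 over all genes. Mmp12, Spp1 and Mmp13 passed as lower with 3 libraries. Mmp12, macrophage elastase, was at 1181 and 1554 CPM in uninjected 1 and 2 and at 466 and 86.5 in injected 1 and 2, without overlap. Its log2 change was -2.44 with 3 libraries, and its edgeR adjusted p was 0.952 with all 4. At least 50% of its UMIs came from 2 cells, and 36.1% from 1. Spp1, osteopontin, was at 754, 11777, 1348 and 8218, with the groups overlapping (-1.25, edgeR adjusted p = 0.00031; 1 with all 4), and at least 50% of its UMIs came from 2 cells. Without uninjected 2 its log2 change was 2.80 (edgeR adjusted p = 5.65e-10). The collagenase Mmp13 was at 25.1, 404, 25.4 and 118, with 64.5% of its UMIs in 1 cell (-2.49; edgeR adjusted p = 9.52e-05). Its log2 change turned to 1.57 without uninjected 2 and to 1.98 with doublets removed. It did not pass with all 4 libraries (edgeR adjusted p = 1).

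Antigen presentation genes had 1 call, RT1-A2, a class I heavy chain, at 75.4 and 647 CPM in uninjected 1 and 2 and 1715 and 1624 in injected 1 and 2 (log2 change 1.41, edgeR adjusted p = 0.0244; 0.983 with all 4). RT1-A genes are close copies, so the count can be split between them. Class II genes had lower estimates, as did the list, with a median log2 change of -0.37 over 15 genes (-0.64 with all 4). Cd74 was at 12609 and 7340 against 5085 and 3126 (log2 change -0.79), without overlap, and did not pass. Apoe-low cells, where it was higher, were a smaller share of the injected cells, with Wilson intervals that overlapped. Within the Apoe-low cells Cd74 was at 18421 and 15327 in uninjected 1 and 2 and at 10280 and 10650 in injected 1 and 2. Within the Apoe-high cells it was at 1398 and 2307 against 1588 and 477, with overlap. The part of the share of Apoe-low cells in the Cd74 result was not tested. Within the Apoe-high cells, the list's median with all 4 libraries was 0.09 over 12 genes.

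Lipid handling genes were tested for 14 of 20 members, and Lpl alone passed. Its log2 change was -4.57 (edgeR adjusted p = 1.99e-13), with 89.1% of its UMIs in 1 cell, and turned to 5.53 without uninjected 2. Apoe itself was the most abundant of them, at 15799 and 35708 CPM in uninjected 1 and 2 and at 38270 and 47968 in injected 1 and 2. The groups did not overlap, and Apoe did not pass (log2 change 0.32 with 3 libraries). Lipid droplet perilipin Plin2 was at 779, 899, 1447 and 1232, the cholesterol exporter Abca1 at 854, 803, 951 and 813, and neither passed.

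The complement list beyond C1q had 12 of 23 genes tested and none passed. Cfd was at 628, 417, 234 and 384 CPM and the integrin Itgam, part of complement receptor 3, at 527, 408, 466 and 557. C3, the central component, was at 0, 4.34, 15.3 and 6.92, the protease C1s at 25.1, 4.34, 2.54 and 3.46, and C4a and C4b had no UMI in these cells. Migrasome genes gave 1 call among 11 tested of 20, the tetraspanin Cd9, at 578 and 1424 against 455 and 343 (log2 change -1.79, edgeR adjusted p = 0.000786; 1 with all 4). The migrasome organiser Tspan4 was at 0, 43.4, 10.2 and 13.8 and did not pass.

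Of the other lists, interferon response genes had a median log2 change of -0.51 over 14 tested genes (-0.59 with all 4 libraries), monocyte-derived macrophage genes 0.18 over 13 (0.28), hypoxia and glycolysis genes 0.12 over 21 (0.33), and immediate early and heat shock genes 0.06 over 21 (0.09). None of their members passed. With all 4 libraries, 6 of 12 monocyte-derived macrophage genes lay above without overlap, against 16.3% of all genes. Cell division genes had no call among 7 tested. Higher estimates were found for 6 of them, against 2460 of 4641 over all genes tested, with a median of 1.17 (0.35 over 3 genes with all 4 libraries). The proliferation gene Mki67 was at 25.1, 21.7, 61.1 and 20.8 CPM. Arginine, nitric oxide and alternative activation genes had 13 tested members, a median of 0.25 and Clec10a as the one call. Nos2, which makes nitric oxide, was at 50.2, 512, 450 and 260, Arg1 at 25.1, 365, 616 and 249, and both overlapped. Outside the lists, and chosen after its values were seen, the inhibitory receptor Lilrb2 was at 0, 4.34, 76.3 and 90.0 (log2 change 4.17, edgeR adjusted p = 0.00385; 0.373 with all 4).

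The injection effect was compared between C1q-expressing and C1q-low cells in 1 model with a term for each library. Both classes of all 4 libraries entered it, the 9 C1q-expressing cells of uninjected 1 included. Against the wider class, 21 of 11643 genes (0.18%) passed for the difference of the effect by edgeR's quasi-likelihood test, 4 with a higher (0.0344%) and 17 with a lower (0.146%) effect in C1q-expressing cells, and DESeq2 called 0. Against the narrower class, 3 of 4852 (0.0618%) passed, namely Cenpe with a higher effect (0.0206%) and Tiam2 and Inhba with a lower one (0.0412%). Without uninjected 1 these counts were 31 of 12851 for the wider and 19 of 9330 for the narrower class. Ccl2 passed against the wider class, with a difference of 2.25 on the log2 scale (edgeR adjusted p = 0.0209), but not against the narrower class (1.24, edgeR adjusted p = 1). There its levels were 2798 and 3066 CPM in uninjected 1 and 2 and 8253 and 7137 in injected 1 and 2, so the narrower class had the same order of libraries by group. Mfge8 differed by -3.73 from the wider class (edgeR adjusted p = 2.06e-07) and by -3.17 from the narrower one (edgeR adjusted p = 0.0943).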

How the data were processed

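Single-cell RNA was measured in 4 droplet libraries of rat wound skin. The authors deposited raw UMI counts per gene and barcode. The matrix was made with Cell Ranger 7.2.0 per the file headers, while the submitters' processing notes name version 5.0.1, and the genome build is not given in the sources used here. The C1q-expressing cells, gene lists and marker lists were chosen with earlier results of these data known. Counts were summed per library over these cells and tested with edgeR 4.0.16 in R 4.3.3 (quasi-likelihood, TMM scaling, filterByExpr, Benjamini-Hochberg adjustment over all genes tested). A library needed 10 cells to enter this test, but not the test of the difference between classes. Levels are CPM, the UMI counts of a gene scaled to the same total in each library, and cell correlations used log2 of CPM plus 100. Shares were compared by exact permutation over libraries (scipy 1.17.1). The free RNA of a gene was estimated from barcodes of at most 100 UMIs, scaled on keratins. Doublets were marked with Scrublet in scanpy 1.11.5 at 0.8% per 1000 barcodes and kept. The fit code was tested on simulated data.

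Named genes were the markers of the rule, the 15 with the highest lowest-library ratio to C1q-low cells, up to 20 genes past the threshold by p, and in each list up to 4 by size of change and 4 by level. That ratio was taken against the narrower C1q-low class, defined after the data were seen. Alternatives were DESeq2 1.42.0, no filter on low counts, the replicate number as a block, each library left out, a C1q minimum of 10 UMIs, doublets removed, a mitochondrial maximum of 10%, a depth minimum of 2000 UMIs and cells thinned to 1000 UMIs. All 4 libraries, the Apoe-high cells, cells with under 0.5% keratinocyte genes and the narrower C1q-low class were added after seeing the data. Some genes of the lists are not reported here.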

Additional observations from a re-analysis of the deposited data

Results flagged for a closer look

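The injection effect differed between C1q-expressing and C1q-low cells by a test of the difference itself (edgeR's quasi-likelihood test) for 21 genes against the wider C1q-low class and for Cenpe, Tiam2 and Inhba against the narrower class. The Cenpe difference was 13.31 on the log2 scale (edgeR adjusted p = 0.00228). Cenpe, a motor protein of dividing chromosomes, was at 0, 0, 50.9 and 6.92 CPM in the C1q-expressing cells of uninjected 1, uninjected 2, injected 1 and injected 2 and at 624, 4.31, 3.26 and 1.32 in the narrower class, so with 2 libraries at 0 this value is no bound. The Tiam2 difference was -3.97 (edgeR adjusted p = 0.00954). Tiam2, an activator of the small GTPase Rac, was at 352, 378, 28 and 6.92 in the C1q-expressing cells and at 33.5, 51.7, 54.6 and 12.3 in the narrower class, and 55.3% of its UMIs in the C1q-expressing cells came from 1 cell. The Inhba difference was -4.31 (edgeR adjusted p = 0.0264), with 75.4, 221, 17.8 and 6.92 in the C1q-expressing cells and 58.6, 47.9, 80.3 and 60.6 in the narrower class, and 39.7% of its 63 UMIs in the C1q-expressing cells came from 1 cell. Without uninjected 1 the narrower class gave 19 genes.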

How the results depend on the processing

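The count of 70 genes for injection in C1q-expressing cells was 3 with DESeq2, 25 with the replicate block (all 4 libraries), 35 with 10 C1q UMIs required, 41 with 2000 UMIs required, 1 in cells thinned to 1000 UMIs, 0 with all 4 libraries, 0 in Apoe-high cells and 0 in Apoe-high cells of all 4 libraries; leaving out 1 library gave 3 to 254. At an unadjusted p under 0.05 edgeR gave 160, 137 and 94 genes in the 3 fits with 0. Same-numbered replicates did not deviate together (r = 0.01 over 3598 genes), so the numbers were taken as names only, and a block on them pairs libraries by name. With that block Ccl2 and Ccl7 had edgeR adjusted p of 0.00634 and 0.00564, against 0.493 and 0.675 with all 4 libraries and no block. Neither gene passed with DESeq2, without injected 1 or without injected 2. The count of 21 genes for the difference between classes was 0 with DESeq2 (144 at an unadjusted p under 0.05), 13 without the filter, 8 with 10 C1q UMIs, 3 with the narrower class and 0 to 89 without 1 library. The share difference among macrophages turned to -2.7 points with the narrower class, and to -7.91, -3.09 and -2.32 without uninjected 2, injected 1 or injected 2. The Cd163 change turned to -1.35 without uninjected 2, -1.41 without injected 2, -0.44 with all 4 libraries (2.07 at the highest, without uninjected 1) and -1.05 in Apoe-high cells of all 4. Spp1 turned to 0.18 with the block, 2.80 without uninjected 2 and 0.44 without injected 1 (-2.16 at the lowest, without injected 2). Mmp13 turned to 1.57 without uninjected 2 and 1.98 with doublets removed, and Lpl to 5.53 without uninjected 2 (-3.17 and -4.85 at the lowest, without injected 2). The cause of these changes was not tested. With 9 to 49 cells a library, genes carried by few cells are limited by cell number.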
